A study of Mus musculus with 6 samples.

Results

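The control pressure-overloaded left ventricle is described here across its expressed protein-coding genes. A gene was counted as a member when the authors' table annotates it as protein coding, it does not lie on the mitochondrial genome, and its deposited FPKM (fragments per kilobase of gene length and scaled to library size, a level per length) was at least 1 in each of the 3 anti-IgG libraries. Members were therefore chosen by their measured FPKM in these same libraries, and that they are expressed is a consequence of the rule and not a result. The rule took 9611 of 22033 protein-coding nuclear genes (43.6%), in tables of 54929 rows. In all, 6 libraries of ventricular mRNA were sequenced in 2 groups of 3, and only the control group enters here, so no groups are compared and no test is made. The control animals were wild-type C57BL/6 mice that had undergone transverse aortic constriction (TAC), in which the aortic arch is narrowed surgically so that the left ventricle ejects against a raised pressure. They received an anti-IgG antibody at 10 mg/kg into the peritoneum every 3 days from 2 weeks after surgery, and their time label is 5 weeks. No unoperated or sham heart was analysed here, so no value below is a change caused by the constriction. The labels do not say whether the 3 libraries came from separate animals, and spreads between them may be partly technical.

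The mouse ventricle is built mainly from cardiomyocytes, whose sarcomeres pull thin actin filaments past thick myosin filaments each time calcium is released from the sarcoplasmic reticulum, and whose mitochondria supply the ATP by oxidising mostly fatty acids. Endothelial cells, fibroblasts, pericytes and macrophages are numerous but small. A ventricle under pressure load is known to enlarge its cardiomyocytes, to express genes of the fetal heart such as those of the natriuretic peptides, skeletal actin and the slow myosin heavy chain, and to deposit matrix. In RNA from whole tissue, fewer cells of a type and less RNA per cell cannot be told apart.

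The libraries held 18063344, 18974921 and 19708578 reads, and values are always given in the order of libraries 1, 2 and 3. Members took 66.1%, 57.8% and 67.2% of the reads, and the mitochondrial genome 30.7%, 39.3% and 29.9%. Every member had at least 4 reads in each library, and 9232 had a mean of at least 100. Library 1 stood apart from the others in part: Pearson's r of log2 FPKM across members was 0.964 with library 2 and 0.953 with library 3, against 0.977 between libraries 2 and 3, and 295, 546 and 153 members were at least 2-fold apart in these pairs. The correlations are over genes, which are not independent replicates. The deviation of a member from its own mean over the 3 libraries, on the log2 scale, also moved with gene length. Spearman's rho between deviation and length was 0.41, -0.11 and -0.37. Among the shortest 10% of members, the median log2 deviation was -0.24, 0.04 and 0.21, and among the longest 10% it was 0.17, -0.04 and -0.13. For many of the gene lists, deviations are also given after length adjustment, for which a smooth trend on length had been taken out of each library.

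**Figure D1:**
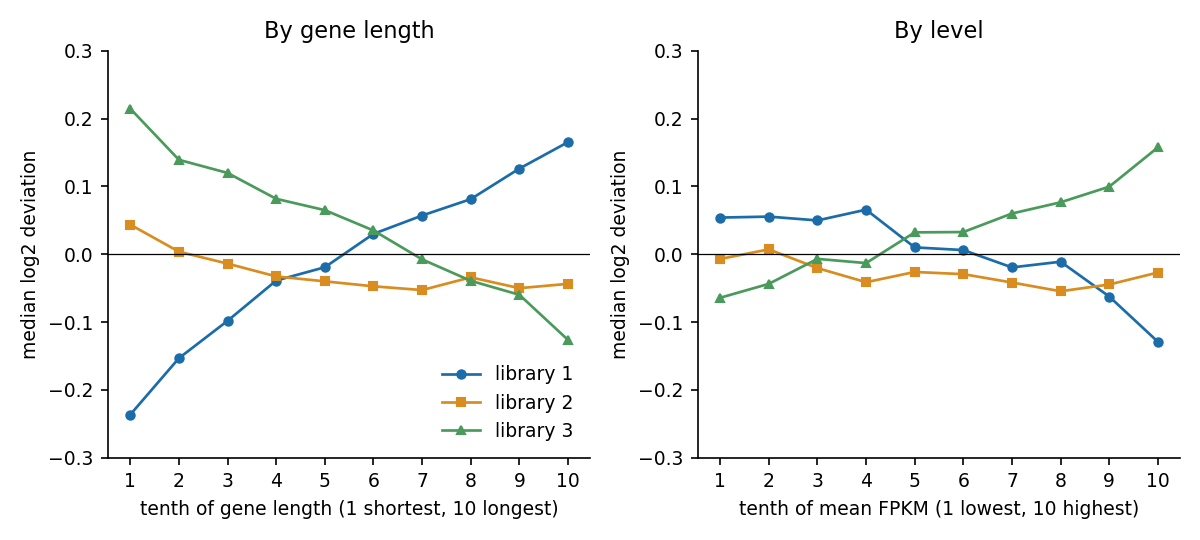
Median log2 deviation of members from their own mean over the 3 anti-IgG libraries, over 10 equal classes of gene length (left) and of mean FPKM (right), with 1 line and symbol per library. In the shortest class library 1 lies lowest, at -0.24, and library 3 highest, at 0.21, and in the longest class the order is the opposite.

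Levels were spread over a wide range and a small set of genes held much of the total. The median of the members' mean FPKM was 5.29, with 1.81 at the 10th and 29.9 at the 90th percentile. Only 15 members reached 1000 FPKM, 267 lay from 100 to 1000, 2521 from 10 to 100, 2190 from 5 to 10, 3341 from 2 to 5, and 1277 below 2. The 10 highest members held 12.0 ± 1.301% (SD, n = 3) of the members' summed FPKM, with 10.6%, 12.2% and 13.2% in the 3 libraries. The 100 highest held 34.97 ± 1.725% and the 1000 highest 68.6 ± 2.01%. Ranked by mean level, 291 members made up 50% of the sum and 4042 made up 90%. Of the 10 highest, 7 genes were in the top 10 of every library, and 77 genes were in the top 100 of every library.

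**Figure D2:**
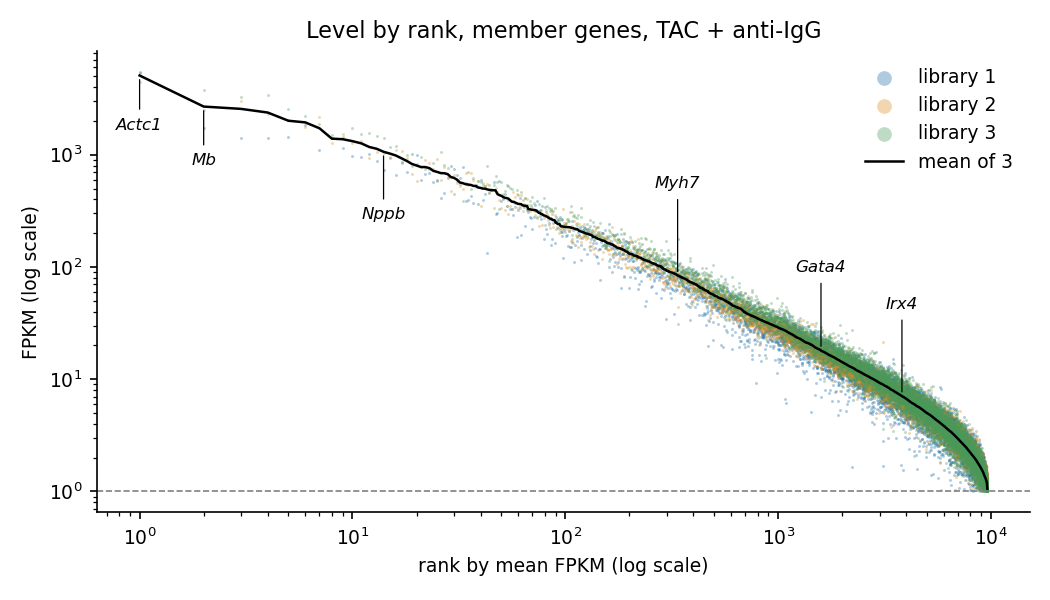
FPKM of each member in each library (points) against its rank by mean FPKM, with the mean as a line and the threshold of 1 dashed; both axes are logarithmic and library 3 is drawn last. The curve runs from Actc1 at 5083 FPKM down to the threshold, and the points of library 1 scatter farthest below the line.

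The cardiac actin gene Actc1 (chromosome 2, 114047282 to 114053548 in the authors' mm10 annotation) was the highest member of all, at 5489.6, 4425 and 5333 FPKM, and ranked first in every library. Behind it stood Mb, which encodes myoglobin, the oxygen store of the muscle cell, at 1749, 2514 and 3797 FPKM. Acta1, the skeletal muscle actin, was the third by mean level. It stood at 1412, 3006 and 3267 FPKM, with library 1 far below the others. Fabp3, the fatty acid binding protein of heart muscle, followed at 1411, 2285 and 3431 FPKM. The regulatory and essential light chains of ventricular myosin, Myl2 and Myl3, stood at 1431, 2049 and 2547 and at 1859, 1763 and 2205 FPKM. The next places were held by the troponin genes Tnnc1 (1111, 2164 and 1888 FPKM) and Tnni3 (1158, 1515 and 1452 FPKM) and by Fth1, the ferritin heavy chain that stores iron (1414, 1267 and 1493 FPKM). Ankrd1, a nuclear and sarcomeric ankyrin repeat protein, closed the top 10 at 981, 1268 and 1715 FPKM. Of these 10 genes, 7 encode parts of the sarcomere or its Z-disc.

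The 3 members nearest above the threshold, by their lowest library, were Zbed4 (1.00021, 1.42 and 1.06 FPKM), Dlg5 (1.00149, 1.24 and 1.32) and Htt (1.19, 1.19 and 1.00197). The nearest genes outside it were Gpr183 (1.02, 0.99888 and 1.28), Pirb (0.999333, 1.46 and 1.37) and Dhcr7 (0.999351, 1.18 and 1.13). Each side had at least 56 reads for every gene in every library. A further 605 genes reached the threshold in 2 libraries and 525 in 1, while 11292 reached it in none, of which 5585 had no read at all. Olfactory and vomeronasal receptor genes, which serve the sense of smell, made up 1466 of the genes eligible, and 3 of them were members.

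The tissue label was checked against marker genes. All 15 cardiomyocyte markers listed were members, with a median of 829 FPKM beside 5.29 over all members. Of the markers that separate the chambers, the ventricular Myl2 and Myl3 were among the highest genes and the ventricular factor Irx4 stood at 6.23, 6.76 and 8.25 FPKM. The atrial genes Myl7 (0.163, 0 and 0 FPKM), Myl4 (0.166, 0.433 and 0.443), Mybphl (0.151, 0.0807 and 0.183) and Bmp10 (0, 0.0115 and 0) were below the threshold, and Sln was listed at 0 in all 3 libraries. Of the other genes listed as markers of the chambers, Nppa, described with the fetal programme, Pam (50.1, 51.3 and 64.6), Stard10 (4.91, 2.98 and 4.58) and Gja5 (2.18, 1.24 and 1.35) were members. Of 15 skeletal muscle genes 2 were members, Acta1 and Myl1 (7.25, 20.3 and 29.9 FPKM), while the fast myosins Myh1, Myh2 and Myh4 were at or near 0. Genes of neighbouring or other organs were low but uneven: 12 lung, liver and thymus genes summed to 50.3, 14.2 and 2.19 FPKM, and the surfactant genes Sftpc and Sftpa1, with Scgb1a1 and Rag1, were listed at 0. The plasma protein gene Alb, made by hepatocytes, stood at 35.9, 8.82 and 0.0399 FPKM. It met the threshold in 2 libraries and was 0.0399 FPKM in library 3. Y-linked genes Ddx3y (19.5, 12.5 and 11.6 FPKM), Eif2s3y (11.2, 8.28 and 7.15) and Uty (2.37, 1.83 and 1.44) were members in all 3 libraries.

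Thick filament genes had 11 of 15 listed genes among the members, with a median of 81.1 FPKM, and together held 3.17% of the members' summed FPKM. The fast alpha myosin heavy chain Myh6 (chromosome 14, 54941921 to 54966927) stood at 879.9, 1050.2 and 1459 FPKM. The slow beta chain Myh7 (chromosome 14, 54970684 to 54994626) stood at 177, 43.8 and 30.7 FPKM. Library 1 was highest for Myh7 and lowest for Myh6. The log2 ratio of Myh6 to Myh7 was 2.31, 4.58 and 5.57, a mean of 4.16 ± 1.67 (SD, n = 3), so that Myh7 made up 16.8%, 4.002% and 2.06% of the pair. This was the widest spread of any ratio measured; the mean log2 ratio of Myh7 to Myh6 was -5.08 without library 1 and -4.16 with it. Both genes are close in sequence, and how reads that match both were assigned is not stated in the labels or files. Mybpc3, the cardiac myosin binding protein C, stood at 571, 337 and 539 FPKM. The M-band genes Myom1 (93.0, 60.5 and 89.8) and Myom2 (93.4, 53.9 and 71.8) and the myosin light chain kinase Mylk3 (56.7, 30.2 and 36.5) had their lowest value in library 2. The giant gene Ttn, the spring of the sarcomere (26.4, 28.5 and 20.7), was far below the light chains.

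Thin filament genes were mostly lowest in library 1. Of 17 listed genes 16 were members, with a median of 107 FPKM, and they held 6.81% of the summed FPKM, and Actc1 and Acta1 made up 60.4% of the list's sum. Library 1 was the lowest for 11 of the 16, beside 37.3% of all members. The median log2 deviation was -0.32, 0.10 and 0.20, and -0.27, 0.12 and 0.13 after length adjustment. The ratio of Actc1 to Acta1 was 1.96, 0.56 and 0.71 on the log2 scale, so that Acta1 made up 20.5%, 40.4% and 38.0% of sarcomeric actin transcripts. Tnnt2, which holds troponin to tropomyosin, stood at 397, 563 and 538 FPKM and its slow skeletal relative Tnnt1 at 1.16, 3.11 and 2.69. The slow skeletal troponin I gene Tnni1, a fetal cardiac form, stayed under the threshold (0.107, 0.157 and 0.0909 FPKM). Tropomyosin was almost wholly Tpm1 (697, 942 and 1003 FPKM), with Tpm2 at 8.80, 14.9 and 20.8. The most variable gene of the list was Xirp1, an intercalated disc protein, at 16.5, 30.5 and 63.0 FPKM, with a coefficient of variation (CV, the SD divided by the mean) of 65.0%.

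Z-disc and costamere genes tie the sarcomere to the membrane and cytoskeleton. Of 24 listed genes 22 were members, and 18 of them were highest in library 3, beside 40.3% of all members. The median log2 deviation was -0.19, -0.05 and 0.24, and -0.16, -0.04 and 0.16 after length adjustment. Cryab, the small heat shock protein that binds desmin, stood at 665, 1101 and 1185 FPKM, Des, the muscle intermediate filament, at 391, 532 and 704, and Csrp3 at 366, 579 and 588. Actn2, the alpha-actinin of the Z-disc, stood at 325, 332 and 438 FPKM. The most variable members were Synpo2l (37.7, 59.1 and 97.9, CV 47.0%) and Flnc (20.2, 20.3 and 39.6, CV 41.8%), both of which were highest in library 3. Dmd, which encodes dystrophin, was low at 3.61, 2.75 and 2.45 FPKM.

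Genes of calcium cycling shared no common order of the libraries. Atp2a2, the calcium pump of the sarcoplasmic reticulum, stood at 1019, 667 and 801 FPKM, and Pln, the peptide that restrains the pump, at 784, 500.1 and 390.0. Both were highest in library 1. Exons of other genes on the opposite strand overlap 64.7% of the exonic length of Pln, and without stated strand use such reads cannot be told apart. Casq2, the calcium buffer of the reticulum, stood at 268, 221 and 318 FPKM and its skeletal form Casq1 at 3.23, 4.80 and 2.87. The release channel Ryr2 was at 20.4, 14.2 and 15.6 FPKM and the L-type channel Cacna1c at 5.01, 5.28 and 4.63. The most variable of the list were Jph2, which holds the reticulum near the surface membrane (53.9, 37.0 and 84.7, CV 41.3%), and the sodium-calcium exchanger Slc8a1 (8.43, 3.74 and 6.24, CV 38.3%). Over the 20 members of 22 listed, library 1 was highest for 9, library 2 for 5 and library 3 for 6.

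Of 31 listed ion channel and junction genes 28 were members, with a median of 11.7 FPKM. The gap junction gene Gja1 stood at 40.3, 31.3 and 30.4 FPKM and Gja5, a connexin of the atria and conduction system, at 2.18, 1.24 and 1.35. The potassium channel genes Kcnj5 (6.98, 2.97 and 3.32), Kcnd2 (2.57, 1.299 and 1.26) and Kcnip2 (26.3, 14.3 and 19.99) were each highest in library 1. The most variable of the list were Hcn2 (2.57, 2.59 and 5.92, CV 52.2%) and Kcnj5 (CV 50.3%). The pacemaker channel Hcn4 (0.416, 0.547 and 0.496) was below the threshold.

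Nuclear genes of oxidative phosphorylation stood high as a group. All 37 genes listed under complex I, where the list places Ndufa4, were members, with a median of 117 FPKM. So were all 14 of complexes II and III (median 218), 15 of 16 of complex IV (median 276) and all 18 of ATP synthase (median 167), beside 5.29 over all members. Of these 84 genes, 82 were in the 1000 highest members. Among their highest were Cox6a2, the muscle form of a cytochrome oxidase subunit, at 946, 1325 and 1518 FPKM, and Usmg5 (863, 1076 and 846), Atp5a1 (991, 580.3 and 834) and Atp5b (800.4, 471 and 627) of the ATP synthase. Library 1 was the lowest for 30 of 37 complex I genes and 11 of 15 complex IV genes. These genes are short, with median gene lengths of 1569 and 944 bp, and after the length trend was removed their median deviations were -0.03, -0.01 and 0.01 for complex I and 0.07, -0.02 and -0.01 for complex IV. The most variable were Atp5k of the ATP synthase (34.7, 72.4 and 172 FPKM) and Uqcr11 of complex III (116, 167 and 338), both of which were highest in library 3. Muscle forms of cytochrome oxidase subunits exceeded the ubiquitous forms for Cox6a2 over Cox6a1 (log2 ratio 3.36, 3.49 and 3.31) and Cox8b over Cox8a (1.80, 2.56 and 2.29). Cox7a1 and Cox7a2 were near each other, with a log2 ratio of -0.29, 0.63 and 0.53, and its mean changed sign when reads were divided by coding length in place of the authors' gene length.

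Energy transfer genes were dominated by Mb, by Slc25a4, the adenine nucleotide carrier of the mitochondrial inner membrane (1012, 939 and 1566 FPKM), and by the mitochondrial creatine kinase Ckmt2 (940.2, 948 and 1183). The cytosolic muscle creatine kinase Ckm stood at 206, 149 and 288 FPKM and the brain form Ckb at 18.8, 24.2 and 33.8, a log2 ratio of 3.46, 2.62 and 3.09. Of 31 genes of fatty acid uptake and oxidation 29 were members, with a median of 54.6 FPKM. Their summed FPKM was 5240, 5360 and 6408. The highest of them, Fabp3, was lowest in library 1 and highest in library 3 (1411, 2285 and 3431 FPKM). Lipoprotein lipase Lpl stood at 750.1, 664 and 451 FPKM and the fatty acid transporter Cd36 at 581, 399 and 330.0. Both Lpl and Cd36 were highest in library 1. Library 1 was the highest for 18 of the 29 and library 2 the lowest for 16, beside 37.6% and 33.1% of all members. Library 3 was the highest for 8 of the 29. The median log2 deviation of the list was 0.15, -0.13 and 0.06, and 0.21, -0.09 and 0.05 after length adjustment. Of the enzymes of the mitochondrial spiral, Acadvl (84.2, 33.8 and 65.0), Hadha (73.6, 35.8 and 54.5) and Acadm (167, 100.3 and 129.8) were highest in library 1 and lowest in library 2. Etfb (9.29, 16.5 and 31.6, CV 59.7%) went the other way, and another gene's exons on the same strand overlap 58.2% of its exonic length. Of 30 genes of glucose use 27 were members, with a median of 71.9 FPKM, and 22 were highest in library 3. Over these genes the median log2 deviation was -0.08, -0.22 and 0.25, and -0.01, -0.19 and 0.23 after length adjustment. Aldoa (569, 742 and 843), the lactate dehydrogenase of heart Ldhb (617, 528 and 552) and Pgam2 (294, 503 and 648) led them. The insulin-regulated transporter Slc2a4 stood at 54.7, 47.5 and 66.4 FPKM and Slc2a1, the form of fetal heart, at 3.10, 4.33 and 5.66. Hexokinases kept a near constant ratio, with a log2 value of 1.05, 1.01 and 1.07 for Hk2 over Hk1. All 17 TCA cycle genes were members (median 116 FPKM), and their median CV of 12.5% was below the 16.5% of all members. Mdh1 (653, 565 and 580.3), Idh2 (528, 297 and 395) and Mdh2 (209, 210.5 and 259) were the highest of them.

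**Figure D3:**
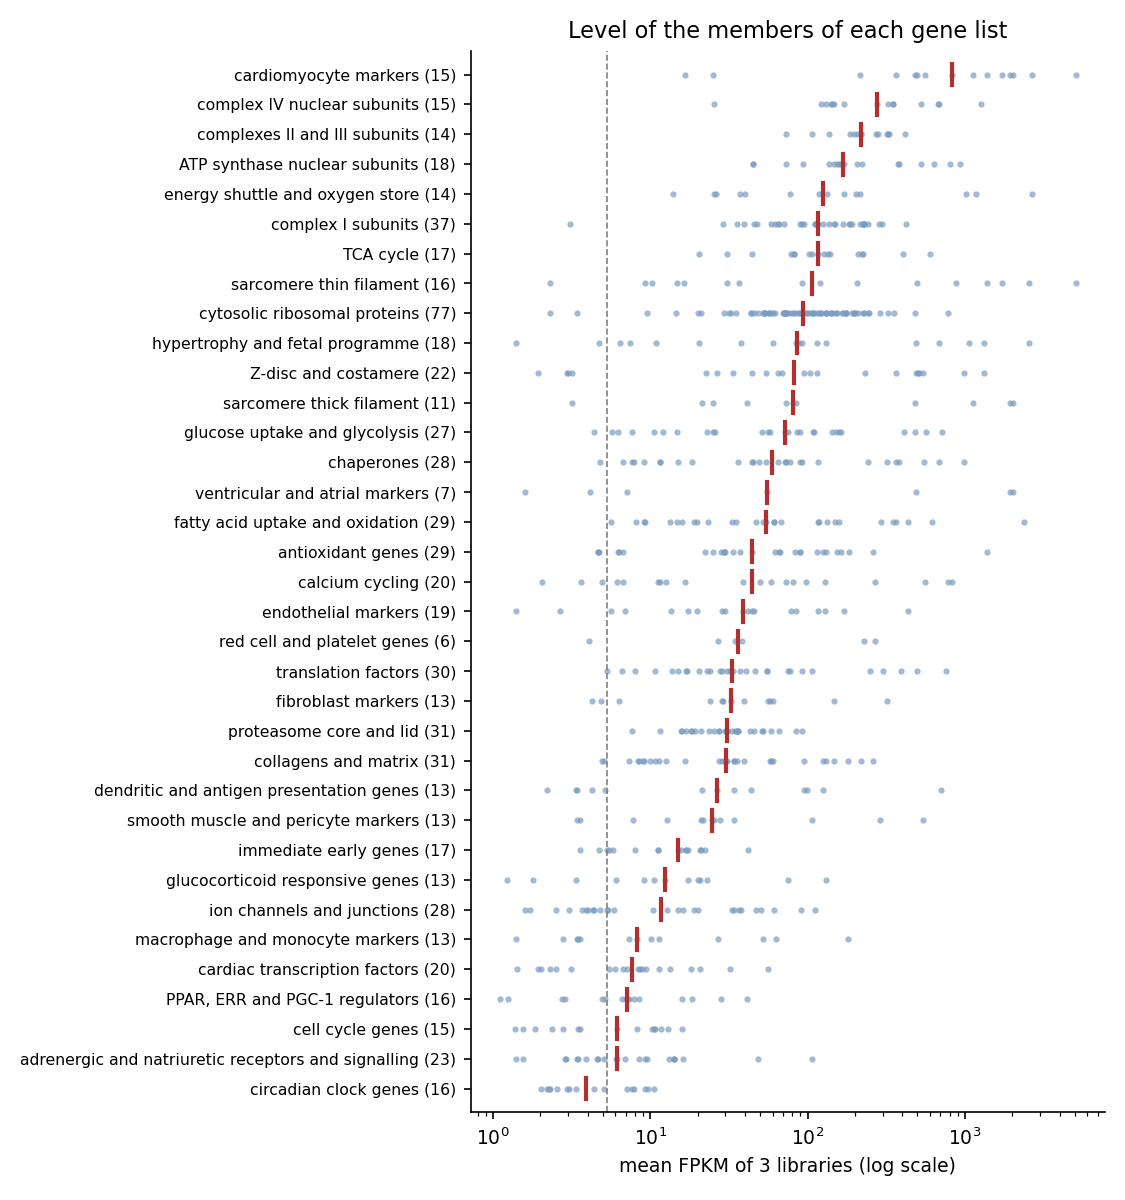
Mean FPKM over the 3 libraries of every member (points) of the gene lists with at least 5 members, on a log axis, with the list's median as a red bar and the number of members in brackets; the dashed line is the median of all members, 5.29 FPKM. Medians run from 829 FPKM for cardiomyocyte markers to 3.89 for circadian clock genes.

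Genes of hypertrophy and of the fetal programme had the highest median CV of the lists with at least 5 members. Of 20 listed 18 were members, with a median of 86.0 FPKM and a median CV of 38.1%, against 16.5% over all members. Library 1 was the lowest for 13 of the 18, and the median log2 deviation was -0.47, 0.16 and 0.46 (-0.51, 0.18 and 0.40 after length adjustment). Nppb (chromosome 4, 147985788 to 147987205), which encodes the B-type natriuretic peptide, stood at 734, 1029 and 1424 FPKM. Nppa (chromosome 4, 148000722 to 148002079), which encodes the atrial natriuretic peptide, stood at 134, 545 and 793 FPKM. The lowest value of both was in library 1, and Nppa was 5.94-fold higher in library 3 than there. The log2 ratio of Nppa to Nppb was -2.46, -0.92 and -0.84, so Nppb was the higher in every library. Exons of a gene on the opposite strand overlap 61.5% of the exonic length of Nppa. Rcan1, a target and inhibitor of calcineurin, stood at 50.1, 113 and 179 FPKM, and Ctgf, a matricellular growth factor, at 62.6, 99.3 and 102. Timp1, an inhibitor of matrix metalloproteinases, stood at 5.09, 30.7 and 25.1, and the stress cytokine Gdf15 at 1.40, 4.12 and 8.60. All 4 were lowest in library 1. Myh7, listed in the same programme, was highest there, so its order over the libraries was the reverse of that of Nppa and Acta1. Npr3, the clearance receptor of natriuretic peptides, was at 1.33, 1.57 and 1.32 FPKM and did not share the pattern.

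**Figure D4:**
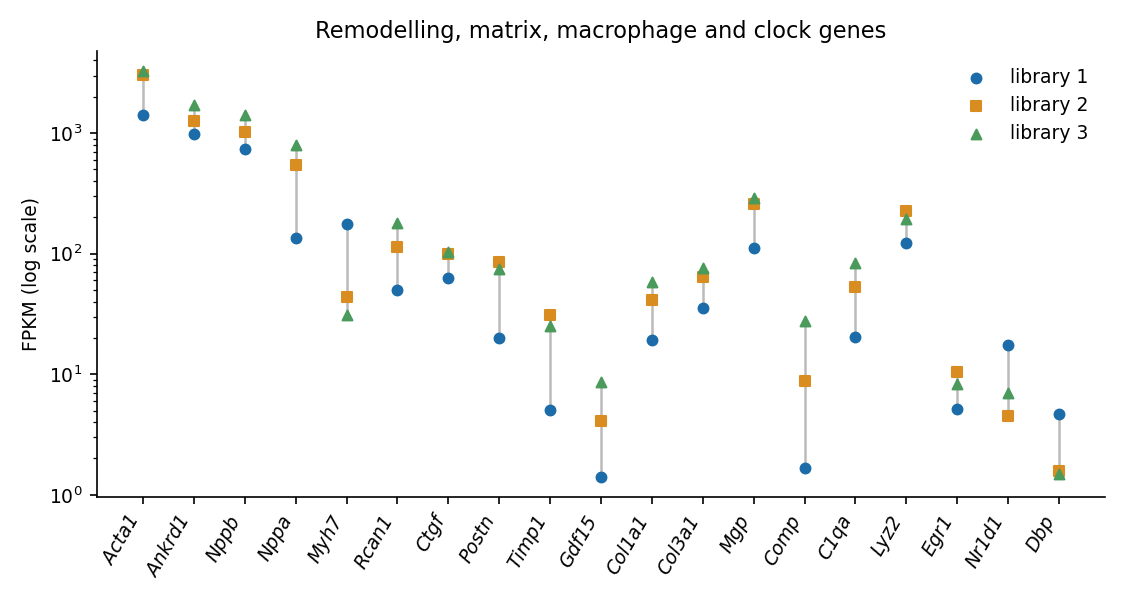
FPKM in each of the 3 libraries (symbols, log axis) of named genes of the fetal programme, matrix, macrophages, early response and the clock; vertical lines join the values of a gene. Library 1 is lowest for every gene shown except Myh7, Nr1d1 and Dbp, for which it is highest.

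The promoters of the sarcomeric actins and the natriuretic peptides are shown because these 4 genes hold much of the transcript mass or of the spread described. Each runs 5′ to 3′ over 300 bases on the gene's strand, from 250 bases before to 50 after the RefSeq start site (base 251) in GRCm38.p6. Capitals mark TATAAA on the gene's strand, CATTCC, the core of the site read by TEAD factors, on either strand, and the CArG box, the site of serum response factor, on either strand. The CArG box was taken in its strict form, CC and GG around a run of A or T only. Forms with a mismatch were not searched.
Actc1 (chr2:114052826-114053125, minus strand): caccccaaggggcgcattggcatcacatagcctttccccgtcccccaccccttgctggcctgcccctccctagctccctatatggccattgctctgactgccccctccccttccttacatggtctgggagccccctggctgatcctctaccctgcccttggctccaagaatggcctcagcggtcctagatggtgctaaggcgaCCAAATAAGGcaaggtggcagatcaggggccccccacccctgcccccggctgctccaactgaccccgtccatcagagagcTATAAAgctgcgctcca
Acta1 (chr8:123894726-123895025, minus strand): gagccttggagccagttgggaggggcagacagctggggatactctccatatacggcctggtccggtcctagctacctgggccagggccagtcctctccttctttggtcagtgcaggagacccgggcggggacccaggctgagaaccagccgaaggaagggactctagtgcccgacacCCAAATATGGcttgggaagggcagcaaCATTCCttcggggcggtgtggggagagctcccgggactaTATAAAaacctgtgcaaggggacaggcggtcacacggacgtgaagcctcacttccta
Nppa (chr4:148000472-148000771, plus strand): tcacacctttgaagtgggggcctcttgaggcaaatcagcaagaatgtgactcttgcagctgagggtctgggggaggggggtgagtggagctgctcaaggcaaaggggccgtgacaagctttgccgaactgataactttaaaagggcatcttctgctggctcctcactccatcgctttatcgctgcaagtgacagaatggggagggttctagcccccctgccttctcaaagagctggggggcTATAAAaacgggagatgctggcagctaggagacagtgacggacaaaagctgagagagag
Nppb (chr4:147985650-147985949, plus strand): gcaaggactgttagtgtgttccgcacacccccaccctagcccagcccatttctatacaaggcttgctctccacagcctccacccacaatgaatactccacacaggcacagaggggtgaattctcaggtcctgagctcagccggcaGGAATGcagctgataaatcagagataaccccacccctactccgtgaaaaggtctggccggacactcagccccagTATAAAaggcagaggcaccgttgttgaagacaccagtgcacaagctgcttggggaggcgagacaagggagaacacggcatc
TATAAA began at base 284 in Actc1, 244 in Acta1, 242 in Nppa and 220 in Nppb, so in Actc1 it lay after the listed start. In its strict form, the CArG box was found once in each of the actins, beginning at base 204 in Actc1 and 178 in Acta1. That form was not found in the windows of Nppa and Nppb. CATTCC was found in Acta1 from base 205 and on the reverse strand in Nppb from base 146. None of these matches overlap.

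RefSeq windows were matched for 7601 of 9611 members (79.1%) by symbol. In the window listed first for each gene, TATAAA was present in 8.88% of all 27025 genes with a window, in 4.35% of members, in 7.82% of members within the 1000 but not the 100 highest, and in 10 of the 80 matched among the 100 highest. The CArG box was present in 1.57% of all, 1.38% of members and 4 of the 80, and CATTCC in 14.6%, 11.7% and 16 of the 80. Of the 33 lists with at least 8 matched members, 4 had no CATTCC (complexes II and III, macrophage, fibroblast and antigen presentation genes) and 21 had no CArG box. The shares that stood highest, named after they were seen, were CATTCC in 8 of 16 matched members of the hypertrophy list, 6 of 14 of the thin filament list and 4 of 9 of the thick filament list, and the CArG box in 5 of 19 matched Z-disc members. The hypertrophy list shares Acta1 and Xirp2 with the thin filament list and Myh7 with the thick filament list. A match describes the letters in the window and shows no binding. Members also had promoters richer in G and C than all genes with a window, with a median of 61.3% against 52.7%, and those of the 100 highest had 56.5%. The 27025 genes with a window were not limited to protein-coding genes and include the members matched. Kind of gene and level therefore cannot be told apart in these contrasts with all genes.

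Matrix genes were almost all lowest in library 1. Of 34 listed 31 were members, with a median of 30.1 FPKM, and library 1 was the lowest for 28 of them. The median log2 deviation was -0.57, 0.19 and 0.39, and -0.60, 0.24 and 0.39 after length adjustment. Sparc, a collagen-binding glycoprotein, led the list at 163, 289 and 332 FPKM, with Mgp, an inhibitor of calcification, at 111, 257 and 291. The fibrillar collagens Col1a1 and Col3a1 stood at 19.3, 41.0 and 58.6 and 35.2, 64.0 and 76.4, a log2 ratio of -0.87, -0.64 and -0.38. Postn, secreted by activated fibroblasts, stood at 19.96, 86.0 and 75.3 FPKM. Comp, a matrix protein of cartilage and tendon, had the largest CV of any member with at least 100 reads, 106%, at 1.67, 8.76 and 27.6 FPKM, and Thbs4 of the same family stood at 6.72, 34.3 and 40.6. Basement membrane collagens were steadier in their ratio than in their level: Col4a1 stood at 98.4, 125 and 154 and Col4a2 at 74.7, 94.1 and 116, and their log2 ratio was 0.40, 0.41 and 0.42, the smallest spread of any pair. Lum (56.7, 61.1 and 54.4), Nid1 (29.9, 31.1 and 30.6) and Fbn1 (11.8, 10.1 and 10.2) differed little between libraries. Fmod and Tnc missed the rule through library 1 alone (0.843, 4.003 and 16.6 and 0.408, 1.79 and 2.52 FPKM).

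Fibroblast markers were lowest in library 1 for 9 of 13 members. Their median log2 deviation was -0.39, 0.22 and 0.29, and -0.26, 0.24 and 0.15 after length adjustment. Of 15 listed 13 were members, their summed level over all listed genes was 702.8, 871.9 and 869.0 FPKM, and none was at 0 throughout. Within the list the order differed by gene. Meox1 (16.4, 38.7 and 42.3), Mfap5 (14.99, 37.6 and 34.9) and Pi16 (14.2, 29.6 and 42.3) were lowest in library 1 by at least 2-fold, while Pdgfra, a receptor that marks fibroblasts (6.44, 7.31 and 5.19), Ddr2 (5.48, 4.89 and 4.24) and Gsn (355, 292 and 318) were not lowest there. How far the number of fibroblasts sampled bears on the matrix values was not tested.

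Endothelial genes were all present and shared no common order of the libraries. All 19 listed were members, with a median of 38.9 FPKM, and their sum was 1435, 1299 and 1202 FPKM. Without Cd36, which heart muscle also expresses, the sum was 854, 900.2 and 872 FPKM. Cd36 (581, 399 and 330.0), Aqp1 (216, 147 and 148) and Ly6c1 (112, 154 and 119.8) were the highest. Pecam1, an adhesion molecule of all endothelium (43.0, 41.8 and 40.9), Cdh5, its cadherin (81.8, 87.0 and 86.1), and Tie1 (30.2, 28.9 and 31.1) differed little between libraries. The pericyte gene Rgs5 stood at 341, 285 and 235 FPKM and the smooth muscle actin Acta2 at 78.7, 96.7 and 145. The smooth muscle gene Cnn1 (2.30, 2.77 and 5.74) was the most variable of the 13 members among 14 mural cell markers. Adipocyte markers had 4 of 11 members, and the fat hormones Adipoq (0.209, 0.261 and 0.0338) and Lep (0.129, 0 and 0) were below the threshold. Of nerve and Schwann cell markers 2 of 12 were members, Uchl1 and Cnp, and of mesothelial and epicardial markers 2 of 10, Aldh1a2 (2.97, 9.96 and 12.4) and Wt1 (1.74, 2.15 and 1.88).

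Macrophage genes were mostly lowest in library 1. Of 18 macrophage and monocyte markers 13 were members, with a median of 8.19 FPKM and a sum over the list of 235.9, 457.1 and 442.5 FPKM, and library 1 was the lowest for 10 of the 13. The median log2 deviation was -0.52, 0.32 and 0.17, and -0.36, 0.31 and 0.05 after length adjustment. Lyz2, encoding lysozyme, stood at 122, 227 and 192 FPKM, and the complement genes C1qa at 20.3, 53.1 and 83.9, C1qb at 38.7, 78.0 and 73.2 and C1qc at 14.9, 31.6 and 34.6. Adgre1, which encodes the F4/80 antigen, was at 2.61, 3.53 and 4.55, and Ccr2, the receptor of recruited monocytes, at 1.75, 1.41 and 1.04, with its highest value in library 1. Antigen presentation genes had 13 of 17 members, led by B2m (599.6, 924 and 586), with the class II genes H2-Aa (28.8, 35.1 and 39.0) and Cd74 (87.0, 90.2 and 119). Near-identical H2 genes can share reads, so their levels are uncertain.

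Lymphocyte genes were nearly absent from the members. Of 18 T and NK cell markers 1 was a member, Thy1 (2.76, 5.16 and 5.71 FPKM), which fibroblasts and neurons also express. Cd3e (0.0353, 0.0631 and 0.0573), Cd4 (0.322, 0.485 and 0.255) and Cd8a (0.119, 0.142 and 0.154) were below 1 FPKM in every library, as was Pdcd1 (0.0498, 0.0267 and 0.0968), the gene of the PD-1 receptor that the other arm of the series targets. Of 12 B and plasma cell markers none was a member. The kappa constant gene Igkc (16.7, 8.23 and 14.6) and Ighm (7.82, 11.0 and 10.3) exceeded 1 FPKM, but the table gives them another biotype, so the rule left them out. Of 14 neutrophil and mast cell markers only Kit was a member. Their sum was 24.5, 4.95 and 9.18 FPKM, and S100a8 (6.02, 0.445 and 1.89), S100a9 (7.73, 0.493 and 2.33) and the mast cell protease Cma1 (2.16, 0.378 and 0.343) had their highest value in library 1, opposite to the macrophage genes. Globin genes of red cells were lowest in library 1: Hbb-bs stood at 157, 319 and 331 and Hba-a1 at 119.8, 328 and 237. Over the 6 members of the red cell and platelet list, which are short genes, the median log2 deviation was -0.56, 0.29 and 0.25, and -0.33, 0.18 and 0.04 after length adjustment. Hba-a1 can share reads with its near-identical copy Hba-a2. The part that blood left in the tissue plays in other results was not tested.

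Genes of protein synthesis were abundant. Of 79 cytosolic ribosomal protein genes 77 were members, with a median of 94.3 FPKM, and held 5.13% of the members' summed FPKM. The highest were Rplp1 (601, 773 and 956), Rps3a1 (484, 486 and 483) and Rplp0 (354, 313 and 395). Library 1 was the lowest for 58 of the 77, with a median deviation of -0.23, 0.09 and 0.17, which shrank to -0.09, 0.09 and 0.03 after length adjustment. Subunits of one particle are needed in equal number, yet the members ranged from 2.30 to 777 FPKM. Rpl7a (5.34, 7.81 and 30.7) and Rpl13a (1.77, 3.51 and 4.996) were far below the median. Many of these genes have processed copies elsewhere in the genome, and the counting of reads that match several places is not described in the labels or files, so the levels of single genes are uncertain. The muscle-specific Rpl3l stood at 62.4, 52.8 and 69.8 FPKM beside its general relative Rpl3 at 70.8, 70.4 and 74.5, and the muscle factor Eef1a2 at 331, 348 and 506 beside Eef1a1 at 445, 527 and 523. The near equality of Rpl3l and Rpl3 depended on the authors' gene length. Their mean log2 ratio was -0.23 by FPKM and -1.19 when reads were divided by coding length. All 30 translation factors were members, led by Tpt1 (688, 842 and 749).

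Chaperones, the proteasome and antioxidant genes showed different spreads. Of 30 chaperones 28 were members, with a median of 59.6 FPKM, and 20 were lowest in library 1. On the log2 scale the chaperones' median deviation was -0.26, 0.00 and 0.24, and -0.27, 0.03 and 0.14 after length adjustment. The small heat shock proteins of muscle were the highest: after Cryab came Hspb7 (416, 595 and 1047) and Hspb6 (389.7, 685 and 565). The inducible Hspa1a (0.534, 1.13 and 1.83) and Hspa1b (0.686, 1.07 and 1.55), a pair of near-identical genes, were under the threshold in library 1. All 31 proteasome subunits were members between 7.66 and 92.6 FPKM, with a median CV of 12.6%, and the highest were Psma6 (97.3, 95.9 and 84.7) and Psmb5 (76.2, 84.4 and 93.7). Of 30 antioxidant genes 29 were members, led by Fth1, the glutathione peroxidases Gpx4 (245, 226 and 315) and Gpx3 (148, 213 and 190.1), and the mitochondrial peroxiredoxin Prdx3 (185, 144 and 161).

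Genes of the transcription factor families were lower in level than other members, while the shorter lists of regulators were not. The cardiac transcription factors had a median of 7.71 FPKM, beside 5.29 over all members. It was 7.11 for the PPAR, ERR and PGC-1 regulators and 6.13 for the adrenergic and natriuretic signalling genes. The authors' deposited table assigns a transcription factor family to 1529 eligible genes, of which 620 (40.5%) were members, against 43.9% of the other genes. The median of the 620 was 3.44 FPKM against 5.47 for other members, 15 were in the 1000 highest and none in the 100 highest. The highest were Ybx1 (155, 167 and 261), Sox18 (67.4, 71.5 and 99.3), Ybx3 (56.3, 62.6 and 76.0) and Hopx (70.2, 52.9 and 46.1). The largest family, zf-C2H2, had 236 members with a median of 2.64 FPKM. Among 20 members of 23 cardiac transcription factors, Nkx2-5 stood at 21.8, 28.2 and 45.8 FPKM, Gata4 at 16.2, 16.4 and 21.5, Srf, which binds the CArG box, at 20.1, 16.3 and 25.5, Tead1, which binds the CATTCC core, at 9.40, 8.77 and 8.46, and Tbx5 at 1.86, 2.21 and 1.75. Nkx2-5 was highest in library 3 and Mef2a (14.4, 11.1 and 8.79) in library 1, while Tead1 varied little. The most variable were Hand2 (4.37, 6.20 and 9.58), highest in library 3, and Foxo1 (4.56, 2.51 and 2.35), highest in library 1. Hand1 was listed at 0.

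Among regulators of metabolism the muscle coactivator Perm1 (47.0, 28.2 and 49.4 FPKM) and the receptor Esrra (24.3, 18.3 and 41.6) were the highest, with Ppargc1a at 10.6, 7.91 and 5.35. Esrra exceeded Esrrg by 2.05, 1.82 and 3.45 on the log2 scale. Ppara, a receptor that drives fatty acid oxidation, met the threshold in library 1 only (1.29, 0.510 and 0.780). Of 30 genes of adrenergic, angiotensin and natriuretic signalling 23 were members. The beta-1 receptor Adrb1 stood at 5.23, 4.82 and 8.12 FPKM. The natriuretic receptor Npr1 was at 5.33, 4.12 and 4.60, Corin, the protease that activates the atrial peptide, at 20.6, 14.6 and 13.6, and the angiotensin receptor Agtr1a at 12.5, 7.84 and 5.12, highest in library 1. Gnas, the stimulatory G protein, was listed low and uneven at 1.75, 2.44 and 6.14 FPKM. Its level is per authors' gene length of 11186 bp, beside a median of 4306 bp over all members.

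Genes that respond within minutes to handling or stress, and genes that follow the hour, also differed between libraries. Of 24 immediate early genes 17 were members, and 16 of the 17 were lowest in library 1, with Klf2 at 26.8, 50.4 and 47.8, Junb at 5.45, 10.3 and 18.2, Egr1 at 5.19, 10.4 and 8.35 and Atf3 at 2.56, 4.26 and 9.09 FPKM. Their median log2 deviation was -0.43, 0.06 and 0.30, and -0.37, 0.09 and 0.17 after length adjustment. Of 19 clock genes 16 were members, and as a list they shared no common order of the libraries. Library 1 was highest for 8 of the 16, beside 37.6% of all members, library 2 for 3 and library 3 for 5. The lowest value was in library 1 for 5, in library 2 for 5 and in library 3 for 6. In library 1, 4 genes that the clock drives had their highest value. Nr1d1 stood at 17.5, 4.47 and 6.96, Nr1d2 at 15.1, 5.20 and 3.46, Dbp at 4.64, 1.58 and 1.499 and Tef at 12.5, 9.24 and 6.16. Per1 was lowest there (1.83, 5.35 and 2.95), and Arntl, which drives the clock, was nearly even (2.86, 2.71 and 3.51). The hour of tissue collection is not in the labels, and the part of hour or handling in the other differences of library 1 was not tested. Glucocorticoid responsive genes were highest in library 2 for 10 of 13 members, beside 22.02% of all members, such as Tsc22d3 (12.5, 31.0 and 16.5) and Mt1 (121, 172 and 96.8).

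Cell cycle genes had 15 of 30 listed genes among the members, and these were mostly genes of G1 and of licensing, such as Pcna (14.6, 18.0 and 15.4 FPKM), Ccnd2 (13.1, 8.74 and 10.3) and Mcm6 (2.996, 3.56 and 4.19). Several genes of mitosis missed the rule through library 1 alone. Mki67 stood at 0.272, 4.02 and 2.06, Ccnb2 at 0.345, 4.88 and 2.20, Top2a at 0.165, 1.73 and 1.11 and Cdk1 at 0.0974, 1.97 and 1.05, each above 1 FPKM in libraries 2 and 3 and well below it in library 1.

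Ratios between related genes kept their sign for most pairs. Of 43 pairs of related genes 34 had both genes among the members. The log2 ratio had the same sign in all 3 libraries for 32, and in 28 the first gene of the pair was the higher in all 3. Which gene comes first was set by the list of pairs, so the 28 depends on that order. The other 9 pairs are not counted. Its range over the libraries was under 1 for 29 pairs and at least 1 for 5, namely Myh6 to Myh7, Esrra to Esrrg, Nppa to Nppb, Actc1 to Acta1 and Casq2 to Casq1. The median SD was 0.37. The pairs with opposite signs were Cox7a1 to Cox7a2 and Pdk4 to Pdk2, a pair of kinases that switch off pyruvate oxidation (-0.43, 0.30 and 0.20). Of the pairs of glycolysis, 3 stood far to the muscle side in every library, with a log2 ratio of 3.87, 3.86 and 4.16 for Eno3 to Eno1, 4.17, 4.89 and 4.20 for Pgam2 to Pgam1 and 4.09, 4.06 and 3.55 for Pfkm to Pfkl. Lactate dehydrogenase was less one-sided, at 1.99, 1.88 and 1.55 for Ldhb to Ldha, as was Hk2 to Hk1. Per coding length the means of these ratios were lower, at 2.34 against 3.97 for Eno3 to Eno1, 3.30 against 4.42 for Pgam2 to Pgam1, 2.90 against 3.90 for Pfkm to Pfkl and 0.84 against 1.81 for Ldhb to Ldha. A ratio between genes depends on the length by which each count is divided; the authors' length is that of all exons of a gene joined, a median of 2.94 times its longest coding length.

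**Figure D5:**
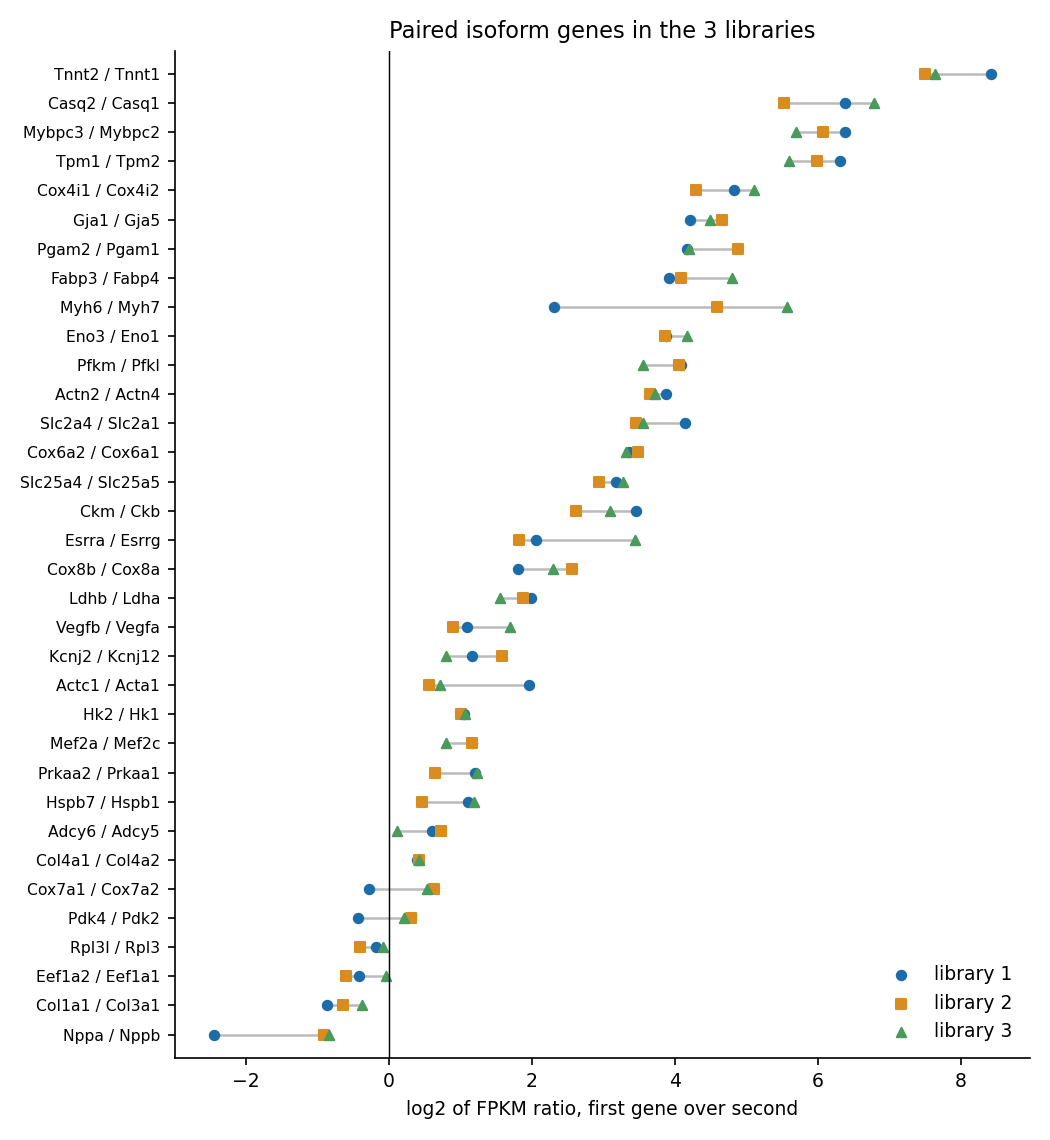
Log2 ratio of FPKM of the first to the second gene of 34 pairs in the 3 libraries (symbols), with a grey line over their range and the vertical line at equal levels. Myh6 to Myh7 has the widest range, from 2.31 in library 1 to 5.57 in library 3, and Col4a1 to Col4a2 the narrowest.

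Over all members the CV had a median of 16.5%, with 4.36% at the 5th and 38.9% at the 95th percentile, while counting error alone gave a median of 4.41%. The CV exceeded its own counting CV for 8981 members (93.4%). The highest library was at least 2-fold above the lowest for 738 members (7.68%) and at least 4-fold for 40, and 2055 stayed within 1.2-fold. With 1 library left out the median CV was 11.5% without library 1, 16.4% without library 2 and 13.4% without library 3. A CV over fewer libraries tends to be smaller, so these values compare with each other and not with the 16.5%. Across members the CV had nearly no rank relation with the mean level (Spearman's rho 0.01).

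The most variable members with at least 100 reads after Comp and Myh7 included Inmt, a methyltransferase (8.20, 2.77 and 1.02 FPKM), which was highest in library 1. Sfrp2, a secreted Wnt modulator (1.43, 3.66 and 8.66), and Tnfrsf12a, the receptor of the cytokine TWEAK (22.2, 44.1 and 103), were highest in library 3. Of the 200 largest CVs, 145 members were lowest in library 1, beside 37.0% of the members with at least 100 reads. Library 3 was the highest for 125 of the 200, beside 3740 of the 9232 members with at least 100 reads. The 200 were shorter genes, with a median length of 2395 bp against 4452 bp. The part of the length trend in these counts was not tested. Mien1, Polr2l and Ppp1r14b were also among the 15 most variable.

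At the other end, the 15 smallest CVs ran from 0.274% to 0.852%. Rps3a1, a ribosomal protein gene, stood at 484, 486 and 483 FPKM, and Cd93, a glycoprotein of endothelium, at 41.3, 41.5 and 41.7. Sdhb, the iron-sulphur subunit of complex II, stood at 315, 321 and 319 FPKM and Eif3c, a translation initiation factor, at 37.2, 37.6 and 37.7. The smallest of all was Rhbdf2 (4.44, 4.43 and 4.41), whose CV of 0.274% lay below the 4.56% that counting error gives for its reads, so the evenness of such a gene is within counting error.

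Several genes known to be abundant in muscle or in most cells were listed below the threshold or close to it. Gapdh, a glycolytic enzyme commonly used as a reference gene, stood at 1.08, 0.910 and 1.57 FPKM, Cpt1b, the muscle carnitine palmitoyltransferase, at 0.199, 0.412 and 0.333, Tagln, a smooth muscle actin-binding protein, at 0.532, 0.518 and 0.752, and Mt2, a metallothionein, at 0.0817, 0.0876 and 1.35. For Cpt1b, 81.4% of the exonic length is overlapped by another gene on the same strand, for Tagln 67.9% and for Mt2 73.5% by genes on the opposite strand, in GENCODE M21. At least 50% of the exonic length was overlapped by other genes on either strand for 63 of 9603 members found in that annotation (0.656%). Among listed genes, this held for 8 of 698 members (1.15%) and for 9 of 170 that were not members (5.29%). On the same strand alone it held for 3 of each set. High members had such overlap too. Opposite-strand exons overlap 64.7% of Pln (784, 500.1 and 390.0 FPKM) and 61.5% of Nppa (134, 545 and 793 FPKM). The part of overlap in the low levels was not tested. Rpl24 (0.793, 0.850 and 3.45) and Rps10 (0.291, 0.513 and 0.667) were also below 1 FPKM in at least 1 library. The labels and files do not describe what the counting did with overlapping and repeated sequence, so the levels of these genes, and their absence from the members, are uncertain.

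By chromosome, the share of eligible genes that were members was highest on chromosome 8 (52.0%) and chromosome 11 (51.8%), and lowest on X (29.4%) and Y (1.64%).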

How the data were processed

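Per the labels' protocols, mRNA was enriched, fragmented and made into cDNA with a NEBNext Ultra kit. The authors deposited read counts per gene, with featureCounts as the counter and mm10 as the build, per the submitters' processing notes. The aligner, strand use and treatment of reads with several matches are not given in the sources used here. FPKM values were deposited too. Each is a count over gene length (bp, as tabulated by the authors) and over 1 constant per library, which was 1.15, 1.02 and 1.09 times the summed reads of libraries 1, 2 and 3; that scaling step is not given either. The gene length matched the joined exons of GENCODE M21 within 1% for 9119 members.

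Both tables were joined by gene identifier, since their row order differs. In 12 members a date stood in place of the symbol and was replaced through the identifier. Per gene, the mean, SD and CV of FPKM over 3 libraries were computed with pandas 2.3.3 and numpy 2.4.6 in Python 3.11.15. The CV from counting error came from the counts as Poisson errors, which cover counting error only. Length-adjusted deviations took out a natural spline of 5 degrees of freedom on log2 gene length per library, in R 4.3.3. The computation was tested on simulated data. No groups were compared, so no test or p-value is given. Alternatives were other thresholds and pseudocount 1, reads or reads per coding length, TMM (edgeR 4.0.16) and size factors (DESeq2 1.42.0) in place of the authors' scaling, and each library left out in turn. Coding length was the longest in GENCODE M21, not that of a protein table.

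Members and the 43 gene lists were chosen with earlier results of these data known. The genes named were the 30 highest members, all genes of the listed pairs, in each list the 3 highest and the 2 with the largest CV, the 15 largest and 15 smallest CVs among members with a mean of at least 100 reads, and the 3 genes nearest each side of the threshold. Other list genes were named after their values were seen. Some genes that this rule takes in are not reported here.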

Additional observations from a re-analysis of the deposited data

How the results depend on the processing

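With no group compared, no result here has a test, and the limits are those of 3 libraries. No paired analysis was possible because only 1 group is described and the result comes from no test. A threshold of 5 FPKM left 4332 members, while thresholds of 0.5 and 2 gave 10950 and 7639, and leaving out 1 library gave 9722 to 9862. The 10 highest members held 9.0025% of the members' reads and 10.5% of reads per coding length, against 12.0% of summed FPKM, and 11.4% to 12.7% with 1 library left out. The median CV was 20.3% without the filter on FPKM and 13.4% for FPKM + 1. With 1 library left out it was 11.5% to 16.4%, the lowest without library 1, but a CV over fewer libraries tends to be smaller. TMM scaling gave 16.5%, DESeq2 size factors 16.6%, no further scaling 18.1% and removal of the length trend 15.3%. The mean log2 ratio of Myh7 to Myh6 ranged from -5.08 to -3.45 with 1 library left out and was -3.80 per coding length.

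Some values changed sign, and the cause was not tested beyond what the length by itself sets. The log2 ratio of Cox7a1 to Cox7a2 was -0.53 from reads and -0.63 from reads per coding length. Vegfb to Vegfa was -0.19 from reads. Pdk4 to Pdk2 was -0.11 without library 2, -0.063 without library 3 and 0.25 without library 1. Relative to the median of all members on the log2 scale, the clock list stood at 0.070 with a threshold of 2, the cell cycle list at -0.30 with a threshold of 0.5, -0.048 without library 3 and 0.38 without library 1, and the macrophage list at -0.46 per coding length. Per coding length, 23 of 34 ratios and 24 of 36 list medians moved by more than their spread between libraries.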

Other observations

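Several genes outside the rule differed widely among the 3 libraries, and are given as values only. The hepatocyte genes Alb, Apoa1, Ttr and Serpina1a stood at 35.9, 4.47, 5.68 and 2.05 FPKM in library 1, at 8.82, 0.583, 1.77 and 0.197 in library 2, and at 0.0399, 0.151, 0.537 and 0.0255 in library 3. The neutrophil genes S100a8 and S100a9 and the mast cell gene Mcpt4 stood at 6.02, 7.73 and 2.08 FPKM in library 1 and at no more than 1.89, 2.33 and 0.928 in the other libraries. Mitotic genes had the opposite order: Ccnb1 was listed at 0 in library 1 and stood at 1.31 and 0.421 FPKM in libraries 2 and 3, and Aurkb stood at 0.0326, 0.717 and 0.872 FPKM.

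The clock genes Per2 (1.24, 1.86 and 0.367 FPKM in libraries 1, 2 and 3) and Per3 (1.57, 0.804 and 0.326) met the threshold in some libraries only. Fosb, an early response gene, stood at 0.131, 0.808 and 0.202 FPKM.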
